A study of Mus musculus with 10 samples.

Results

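The genes of the DNA replication machinery were described in whole subcutaneous tumours of MC38, a mouse colon adenocarcinoma line. The genes were the 35 of 18223 in the deposited table whose KEGG pathway annotation holds DNA replication. The 10 RNA-seq libraries came from tumours labelled high tumour burden (HTB, 5 libraries, titled High_TB) or low tumour burden (LTB, 5 libraries, titled Low_TB). The treatment label gives the number 2000000 for HTB and 500000 for LTB, each with 14 days, and does not say what the number counts. All 10 libraries share the cell line and the site, and neither the mouse strain, the animals' age nor the tumour size is given in the sources used here. Nothing in the labels says that libraries came from separate animals, so p-values measure the spread between these libraries, which may be technical.

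Copying a genome takes a fixed set of machines. The MCM2-7 ring unwinds the double helix, RPA coats the bared single strands, polymerase alpha with its primase starts each strand, and polymerases epsilon and delta extend the leading and the lagging strand. PCNA is the ring that holds the polymerases on DNA and RFC is the loader that opens it, while FEN1, DNA2, RNase H2 and DNA ligase I turn Okazaki fragments into a continuous strand. Many of these genes are known targets of E2F transcription factors and peak in cells that enter S phase, so in a tumour their RNA is read as a sign of dividing cells, tumour and immune alike. In bulk tissue, fewer dividing cells and less RNA per cell cannot be told apart.

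Library totals were 24884292 to 27185168 estimated reads in HTB and 23070917 to 26880191 in LTB. All 35 genes passed the filter on low counts, with 351 to 8685 reads per gene and library, so none entered through 1 group alone. HTB replicate 2 stood apart: its summed level of 6 skeletal muscle markers was 13170 CPM (counts scaled to a common library total), against 7.34 to 47.9 CPM over the other 4 of HTB and 4.0 to 5.89 CPM in LTB (3 of 4 tested markers were called higher in HTB by edgeR, 0 by DESeq2 or limma voom), and its 5 adipocyte markers summed to 2608 CPM against 10.4 to 26.2 CPM in the other 9 libraries. Of the 6 epithelial markers fixed to check the label, Krt8, Krt18, Krt19 and Cldn4 stayed between 0 and 0.207 CPM in every library and Epcam at 0.166 to 1.81 CPM, while Cdh1, an adhesion protein, spanned 2.07 to 5.59 CPM (HTB) and 5.51 to 15.3 CPM (LTB). The keratins that mark epithelium were thus at or near 0.

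Of the 35 replication genes, 5 fell in HTB and 30 did not pass the test. The 5 were Pcna, Pold4, Pola2, Prim2 and Pole2, by 20 to 27%, in edgeR's quasi-likelihood test with Benjamini-Hochberg adjustment over all 13469 genes tested. None of the 35 rose, and of the 12 genes with an unadjusted p under 0.05 all were lower. DESeq2 and limma voom also called 0 higher. How many of all tested genes had such an unadjusted p is not given here. The unadjusted counts, here and by role or list below, therefore have no background beside them and are description only. The 5 make 14.3% of the genes, where 7.51% of all tested genes were called lower and 3.91% higher. The log2 fold changes, HTB against LTB, ran from -0.45 to 0.13 with a median of -0.18, and 33 of 35 were below 0. Over all tested genes the median was 0.016 and 47.3% were below 0. None changed 2-fold. The groups did not overlap for the same 5 genes, each with every HTB library below every LTB library, which held for 7.06% of all tested genes (4.68% the other way).

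**Figure D1:**
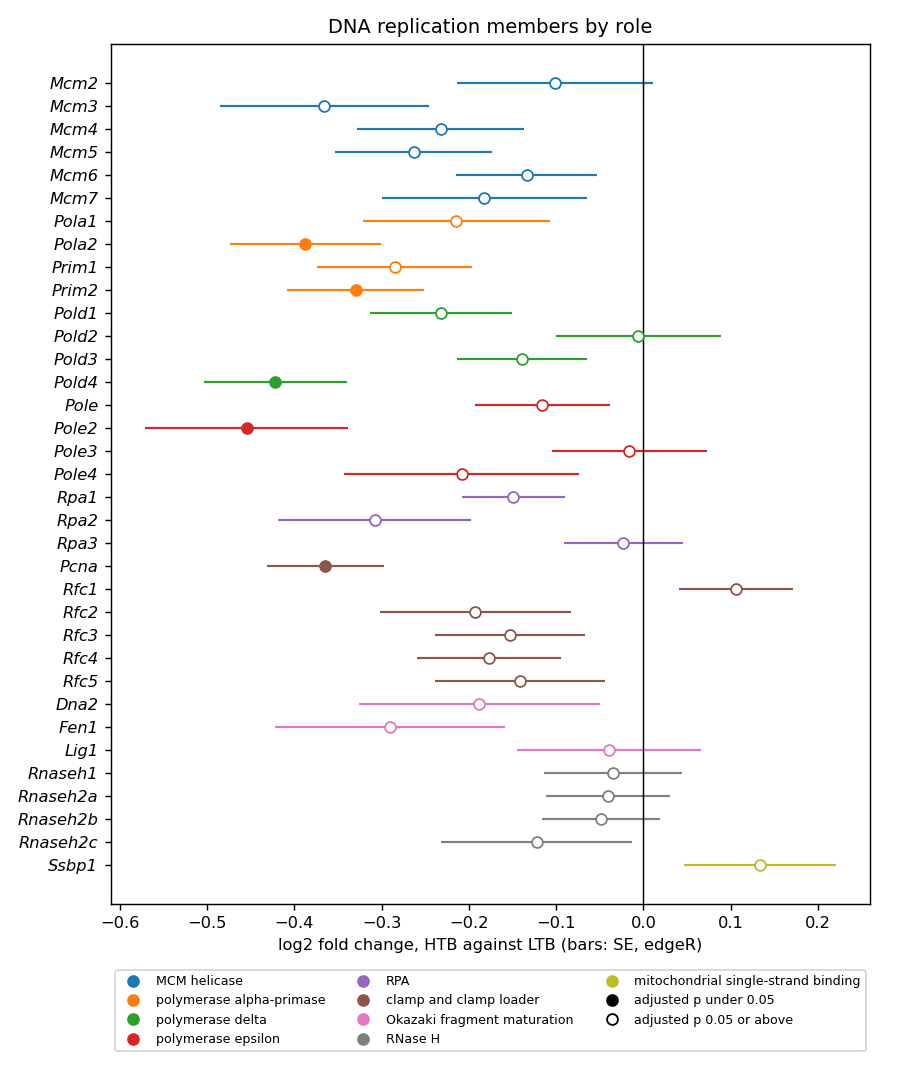
Log2 fold change of each of the 35 genes, HTB against LTB, on the horizontal axis, with the standard error as a bar and colour for the role; filled points passed at an adjusted p under 0.05. The 5 filled points lie between -0.45 and -0.33, and Rfc1 and Ssbp1 are the 2 points right of 0.

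The sliding clamp showed the firmest fall. Pcna stood at 257, 274, 243, 245 and 222 CPM in HTB replicates 1 to 5, and at 328, 303, 317, 305 and 345 CPM in LTB replicates 1 to 5. The highest HTB library, replicate 2, was below the lowest LTB library. The means were 248 ± 19.0 CPM in HTB and 320 ± 17.3 CPM in LTB (SD, n = 5 each). On the log2 scale the difference was -0.36 ± 0.07 (SE), with an adjusted p of 0.00899 in edgeR. Pcna is NCBI gene 18538, at chr2:132239492-132253217 of GRCm38 on the minus strand, a span with exons and introns.

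The loader subunits did not pass. Rfc2, Rfc3, Rfc4 and Rfc5, the small subunits of the pentamer, had log2 fold changes of -0.19, -0.15, -0.18 and -0.14. Rfc1, the large subunit, went the other way at 0.11 ± 0.07 (SE; adjusted p = 0.302, edgeR). HTB libraries spanned 125 to 152 CPM, median 142, and LTB libraries 122 to 141 CPM, median 131. HTB replicate 2 was the lowest HTB library for Rfc1 and the highest for Rfc2, Rfc3 and Rfc5. Rfc4 had fractional estimated counts in 9 of 10 libraries, and Pola2, described below, in 2. Reads shared with another gene could affect both genes.

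Polymerase alpha-primase was the role with the lowest median, -0.31, and 2 of its 4 genes fell. Pola2 encodes the accessory B subunit of polymerase alpha-primase. It stood at 29.5, 34.6, 29.7, 29.7 and 27.2 CPM in HTB replicates 1 to 5 and at 38.3, 37.0, 38.9, 36.6 and 46.4 CPM in LTB. No HTB library reached the LTB range, and LTB replicate 5 was apart from the other LTB libraries. Its log2 difference was -0.39 ± 0.09 (SE), with an adjusted p of 0.0194 in edgeR.

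Prim2, the regulatory subunit of primase, was at 40.6, 44.1, 41.7, 40.5 and 35.5 CPM in HTB replicates 1 to 5 and at 44.8, 51.9, 53.5, 48.0 and 56.3 CPM in LTB. HTB replicate 2 and LTB replicate 1 nearly met. Its log2 difference was -0.33 ± 0.08 (SE), with an adjusted p of 0.0248 in edgeR. Its catalytic partner Prim1 spanned 39.1 to 53.2 CPM (HTB) and 49.5 to 58.7 CPM (LTB), -0.29 ± 0.09 on the log2 scale (adjusted p = 0.0622). Only HTB replicate 2 of Prim1 entered the LTB range. Pola1, the catalytic subunit, spanned 66.0 to 81.1 CPM (HTB) and 67.6 to 99.7 CPM (LTB), and LTB replicate 1 was its lowest LTB library (-0.21 ± 0.11, adjusted p = 0.212). Pola2 (NCBI gene 18969) lies at chr19:5940405-5964216 and Prim2 (19076) at chr1:33453808-33669794.

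In polymerase delta 1 of 4 subunits fell, the smallest one. Pold4, the accessory p12 subunit, was at 36.7, 29.6, 33.5, 34.9 and 34.4 CPM in HTB replicates 1 to 5 and at 41.6, 44.4, 42.1, 45.6 and 52.8 CPM in LTB. Here HTB replicate 2 was the lowest library of all, not the highest of its group. Pold4 differed by -0.42 ± 0.08 on the log2 scale (SE), with an adjusted p of 0.0111 in edgeR. The catalytic subunit Pold1 was at -0.23 ± 0.08 (adjusted p = 0.0899), Pold3 at -0.14 ± 0.07 (adjusted p = 0.244) and Pold2 at -0.01 ± 0.09 (adjusted p = 0.975), on the log2 scale. The Pold2 sign turned under several settings. Pold2 spanned 51.3 to 69.6 CPM (HTB) and 51.0 to 63.9 CPM (LTB). The ratio of Pold4 CPM to Pold2 CPM within a library was 0.425 to 0.674 in HTB and 0.703 to 1.0 in LTB. This ratio was 1 of 10 subunit ratios looked at after the values were seen, and its non-overlap is a description. Of the others, Mcm3 to Mcm2 also did not overlap (0.688 to 0.76 in HTB, 0.772 to 1.09 in LTB), and the other 8 did. Pold4 (NCBI gene 69745) lies at chr19:4231893-4233634 on the plus strand.

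Polymerase epsilon had a similar split, with 1 of 4 subunits called. Pole2, the second-largest subunit, was at 20.9, 26.7, 21.3, 20.5 and 16.6 CPM in HTB replicates 1 to 5 and at 29.6, 26.7, 32.6, 26.8 and 29.4 CPM in LTB. HTB replicate 2 and LTB replicate 2 touched at 26.7 CPM, and the other HTB libraries were clearly below. Pole2 differed by -0.45 ± 0.12 on the log2 scale (SE), with an adjusted p of 0.0323 in edgeR, the largest difference of the 35. The catalytic gene Pole was at -0.12 ± 0.08 on the log2 scale (adjusted p = 0.346). The small histone-fold subunits were at -0.02 ± 0.09 for Pole3 and -0.21 ± 0.13 for Pole4 (adjusted p = 0.921 and 0.327), and Pole4 reached 64.7 CPM in LTB replicate 1 against 38.6 to 52.3 CPM in the other LTB libraries. Pole2 (NCBI gene 18974) lies at chr12:69200699-69228247.

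The MCM helicase genes were all below 0 and none of the 6 passed (3 at an unadjusted p under 0.05, 2 by DESeq2, 0 by limma voom). Summed over the ring, HTB had 1080 ± 138 CPM and LTB 1241 ± 92.5 CPM (SD, n = 5 each), with HTB from 920 to 1294 CPM and LTB from 1146 to 1392 CPM. Mcm3 was at 124, 170, 134, 134 and 114 CPM in HTB replicates 1 to 5 and at 164, 161, 167, 161 and 217 CPM in LTB, so only HTB replicate 2 lay within the LTB range. Mcm3 differed by -0.37 ± 0.12 on the log2 scale (SE), with an adjusted p of 0.074 in edgeR. Mcm5 was at -0.26 ± 0.09 (adjusted p = 0.0836) and Mcm4 at -0.23 ± 0.10 (adjusted p = 0.138). Mcm2, Mcm6 and Mcm7 lay between -0.18 and -0.10. Mcm2 showed the position of HTB replicate 2 most plainly: 246 CPM there, above every other library, 150 to 194 CPM in the rest of HTB and 197 to 212 CPM in LTB.

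**Figure D2:**
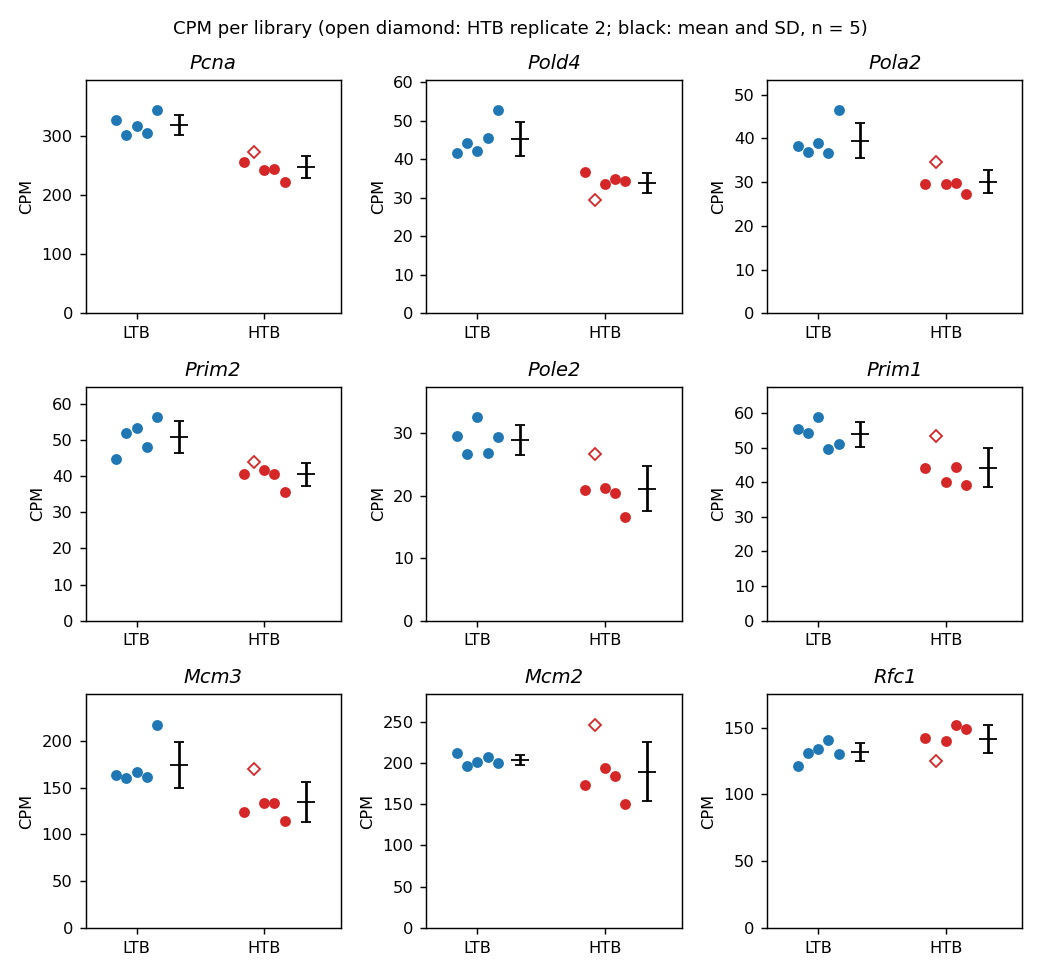
CPM in each library (vertical axis, from 0) for the 5 genes that passed and for Prim1, Mcm3, Mcm2 and Rfc1; points are libraries in replicate order, the open diamond is HTB replicate 2, and black marks give mean and SD. In Mcm2 that diamond, at 246 CPM, is above all LTB points, and in Pcna all 5 HTB points are at or below 274 CPM.

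RPA, Okazaki fragment and RNase H genes gave 0 calls in edgeR, DESeq2 and limma voom. Of the RPA genes 2 of 3 had an unadjusted p under 0.05, and of the Okazaki fragment and RNase H genes 0. Rpa2, the middle subunit of RPA, was at -0.31 ± 0.11 on the log2 scale and Rpa1, the large DNA-binding subunit, at -0.15 ± 0.06 (adjusted p = 0.096 and 0.127, edgeR). Rpa3, the smallest, was at -0.02 ± 0.07. The flap endonuclease gene Fen1 spanned 27.8 to 47.7 CPM (HTB) and 37.9 to 48.7 CPM (LTB; -0.29 ± 0.13, adjusted p = 0.173), again with HTB replicate 2 as the highest HTB library. Dna2, a nuclease and helicase for long flaps, was at -0.19 ± 0.14 (adjusted p = 0.391), and the ligase gene Lig1 at -0.04 ± 0.11 (adjusted p = 0.832).

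Among the RNase H genes, Rnaseh1, which acts on RNA paired to DNA, and the 3 subunit genes of RNase H2, Rnaseh2a, Rnaseh2b and Rnaseh2c, lay between -0.12 and -0.03 on the log2 scale. Their summed level was 111 ± 8.2 CPM in HTB and 116 ± 2.35 CPM in LTB (SD, n = 5 each). Ssbp1, the single-strand binding protein of mitochondrial DNA and so outside the nuclear fork, was at 0.13 ± 0.09 (adjusted p = 0.332, edgeR), spanning 53.0 to 61.6 CPM (HTB) and 45.9 to 63.5 CPM (LTB). A p that misses the threshold does not show that these genes were equal.

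Much of the spread within HTB came from replicates 2 and 5. Replicate 2 was the highest HTB library for 25 of 35 genes and replicate 5 the lowest for 31. All 35 genes summed to 2709, 3199, 2859, 2820 and 2482 CPM in HTB replicates 1 to 5 and to 3029, 3153, 3240, 3120 and 3409 CPM in LTB. HTB replicate 2 therefore lay among the LTB libraries while the other 4 HTB libraries lay below all of them. Against the mean of the other HTB libraries, HTB replicate 2 had 1.49 times the CPM of Fen1 and 1.41 times that of Mcm2, but 0.848 times that of Pold4 and 0.856 times that of Rfc1. The muscle and adipocyte markers were high in the same library, and their part in these values was not tested.

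**Figure D3:**
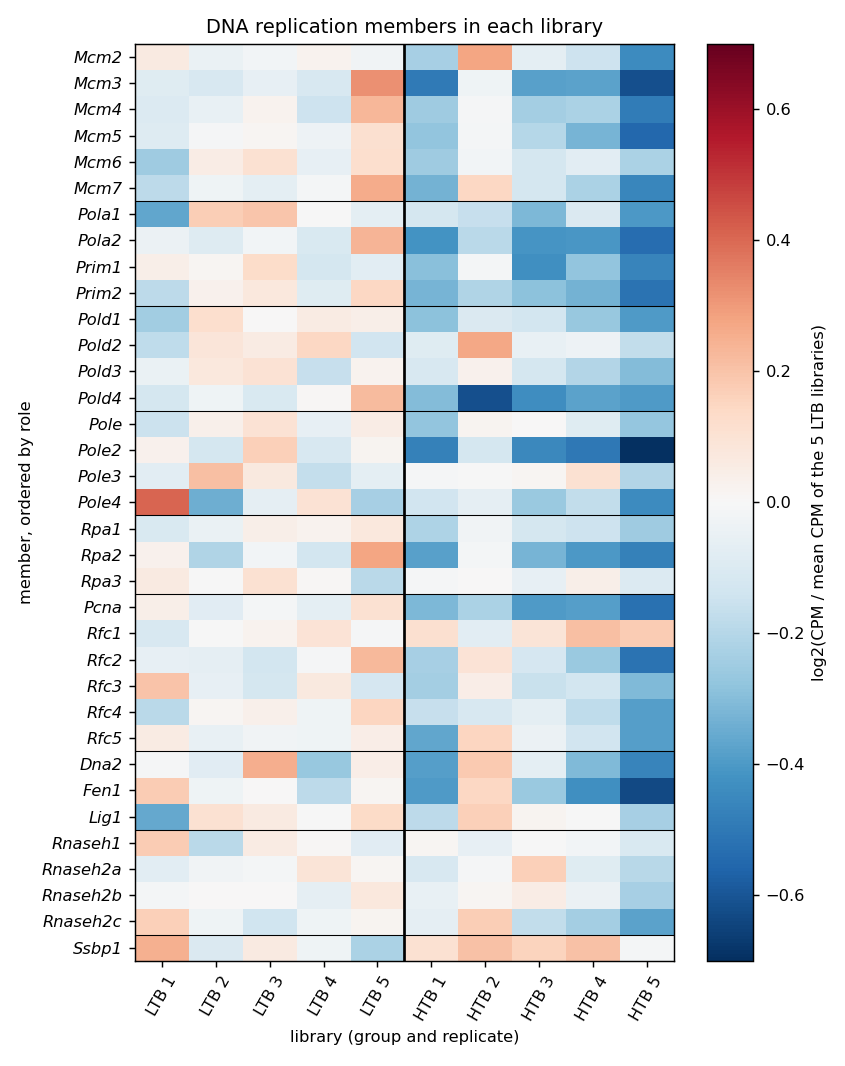
Log2 ratio of CPM to the mean of the 5 LTB libraries, for the 35 genes (rows, by role) in each library (columns). Blue is below and red above that mean: HTB replicate 5, with the lowest sum (2482 CPM), is the bluest column, and HTB replicate 2 (3199 CPM) is pale or red in most rows but dark blue for Pold4.

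With HTB replicate 2 left out, 13 of 35 genes fell and 0 rose, where 12.7% of all tested genes were then lower. The 5 genes remained among the 13. The other 8 were Prim1, Fen1, Mcm3, Mcm4, Mcm5, Pold1, Rpa1 and Rpa2. Mcm3 was then at -0.46 ± 0.10 and Fen1 at -0.42 ± 0.09 on the log2 scale (SE; adjusted p = 0.0114 and 0.0105, edgeR), and Pole2 at -0.55 ± 0.10. In this fit Rfc1 was at 0.15 ± 0.06 (adjusted p = 0.0839). The count fell to 2, Pcna and Pold4, without HTB replicate 3 or without HTB replicate 4, and to 3 (with Pola2) without HTB replicate 5, LTB replicate 3 or LTB replicate 5. Pole2 also lost its call without HTB replicate 1 or LTB replicate 1. Over all 19 alternative fits the adjusted p ran from 0.000806 to 0.0745 for Pola2, from 0.00191 to 0.0786 for Prim2 and from 0.00237 to 0.0787 for Pole2 (edgeR, DESeq2 or limma).

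**Figure D4:**
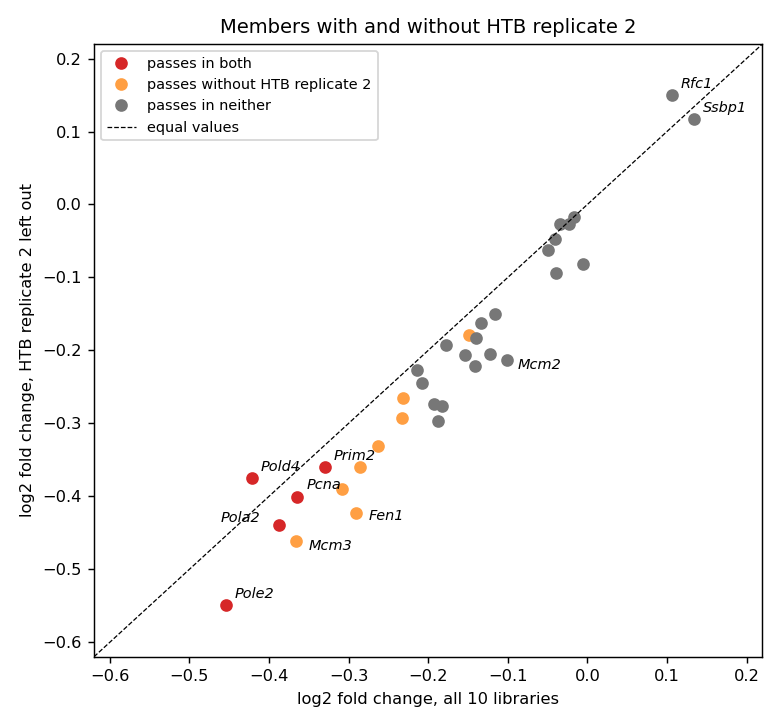
Log2 fold change of each gene in the fit of all 10 libraries (horizontal) and in the fit without HTB replicate 2 (vertical); the dashed line marks equal values. Most points lie below the line, such as Mcm3 at -0.37 and -0.46, and Pold4 lies above it.

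In the authors' deposited table, 8 of the 35 genes had a q under 0.05 and all 8 were lower in HTB, where 7.66% of that table's genes with a q were called lower. The authors' deposited table adds Prim1 (q = 0.0303), Mcm3 (q = 0.0317) and Mcm5 (q = 0.0414) to the 5 genes above.

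Levels were compared between genes as CPM per kilobase of transcript (RPKM). Pcna was the most abundant in both groups, at 210 ± 11.4 RPKM in LTB and 164 ± 12.5 RPKM in HTB (SD, n = 5 each). Mcm6, Mcm7 and Mcm2 followed in that order in both, at 81.9 ± 8.28, 65.8 ± 7.83 and 60.3 ± 1.82 RPKM in LTB, of which Mcm7 and Mcm2 did not differ beyond their spread. Mcm3, Mcm5 and Mcm4 were at 57.4 ± 8.03, 55.1 ± 2.87 and 51.7 ± 5.46 RPKM in LTB, and the ranges of mean ± SD of all 3 overlapped. The catalytic polymerase subunits were lower: Pold1 at 23.7 ± 2.19, Pola1 at 16.3 ± 2.44 and Pole at 15.4 ± 1.06 RPKM in LTB, the last 2 within their SD. Dna2 was the lowest, at 5.22 ± 0.69 RPKM in LTB and 4.58 ± 0.88 RPKM in HTB. For 30 of the 35 genes this level was within 1.5-fold of the authors' deposited mean expression value. For Pole3, Rfc2, Rnaseh2c, Rfc5 and Ssbp1 it was lower by more than that, so their place in the order is uncertain.

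Promoter windows were read for 29 of the 35 genes from RefSeq (GRCm38.p6), covering 250 bases upstream of a transcription start. The E2F words TTTCGCGC, TTTGGCGC, TTTCCCGC and TTTGCCGC, sought on both strands, were present for 6 of the 29 genes (20.7%), against 3.78% of 10651 tested genes with a window and 1.86% of all 32851 windows. The 6 were Mcm5, Mcm6, Mcm7, Pola1, Pole4 and Rfc3. None of the 4 genes that fell and had a window (Pcna, Pold4, Pola2, Pole2) held such a word there. No match says only that these letters are not in the window. The Mcm5 and Mcm6 windows are shown because each holds an overlapping pair of these words on opposite strands, in capitals (at chr8:75109259-75109508, plus strand, and chr1:128359706-128359955, minus strand). The separate capitals in Mcm6 are a further TTTGGCGC, which starts 47 bases upstream.
Mcm5: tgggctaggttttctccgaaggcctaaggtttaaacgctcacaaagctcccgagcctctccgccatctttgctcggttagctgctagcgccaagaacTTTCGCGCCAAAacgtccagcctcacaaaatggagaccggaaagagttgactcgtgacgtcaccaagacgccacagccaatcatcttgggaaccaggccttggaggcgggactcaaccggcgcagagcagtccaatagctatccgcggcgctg
Mcm6: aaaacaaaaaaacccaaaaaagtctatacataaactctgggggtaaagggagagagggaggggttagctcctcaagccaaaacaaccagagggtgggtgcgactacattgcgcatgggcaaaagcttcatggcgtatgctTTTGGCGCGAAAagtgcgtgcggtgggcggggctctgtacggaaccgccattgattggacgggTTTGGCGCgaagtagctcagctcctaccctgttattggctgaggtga

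The CCAAT word, sought on both strands, was present for 16 of the 29 genes (55.2%), against 40.9% of tested genes with a window. Of the 4 genes that fell, Pcna and Pold4 held it. Their windows are shown because these 2 genes passed the test in every setting tried, with CCAAT or its reverse complement in capitals (at chr2:132253181-132253430, minus strand, and chr19:4231643-4231892, plus strand).
Pcna: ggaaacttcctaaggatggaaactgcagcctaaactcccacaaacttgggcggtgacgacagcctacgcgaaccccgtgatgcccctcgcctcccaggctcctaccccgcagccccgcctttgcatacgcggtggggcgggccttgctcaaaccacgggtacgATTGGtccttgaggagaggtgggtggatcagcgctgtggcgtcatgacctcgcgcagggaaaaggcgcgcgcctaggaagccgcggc
Pold4: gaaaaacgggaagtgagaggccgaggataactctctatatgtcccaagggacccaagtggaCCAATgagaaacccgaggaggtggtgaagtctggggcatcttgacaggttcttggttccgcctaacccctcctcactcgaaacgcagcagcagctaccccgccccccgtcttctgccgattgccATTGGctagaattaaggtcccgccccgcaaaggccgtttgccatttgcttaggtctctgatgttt
The CHR words TTTGAA and TTCGAA were present for 6 of the 29 genes (20.7%; 15.1% of tested genes) and the NRF1 palindrome for 1 (3.45%; 1.79%). Such matches describe letters and are not shown to be bound.

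The genes shared other annotations. Of the 35, 18 are also annotated to nucleotide excision repair and 3 of these fell, while 26 other tested genes of that pathway had 0 lower and 1 higher call and a median of 0.05 on the log2 scale. Mismatch repair holds 15 of the 35, of which 2 fell, and 7 other tested genes, of which 0 were called. Base excision repair holds 11, of which 3 fell, and 25 other tested genes, with 0 called lower and 2 higher. Over all tested genes 7.51% were called lower. At that share few lower calls would fall among 26, 7 or 25 genes, so their 0 is not read as a contrast. Other shared pathways had lower calls outside the 35, at shares near that background. Purine and pyrimidine metabolism each hold 12, of which 4 fell. Their other tested genes had 8 of 133 and 6 of 80 lower, and 5 and 2 higher. Homologous recombination holds 8, of which 1 fell, and 33 others, with 2 lower and 1 higher. Cell cycle holds 7, of which 1 fell, and 115 others, with 9 lower and 0 higher. These counts describe the pathways, and no difference between members and other genes was tested.

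Other genes of the cell division programme were taken from 8 lists by function, 152 genes tested in all, of which 11 fell and 0 rose. That share is about the 7.51% called lower over all tested genes, so in this fit the combined count is at the background. The same percentage is the background for each list below. Their log2 fold changes leaned lower all the same, with a median of -0.12 over the 152 genes against 0.016 over all tested genes. Without HTB replicate 2, 30 of the 152 fell and 5 rose, where 12.7% of all tested genes were lower. Origin licensing and firing, the steps that load and start the MCM ring, had 2 of 25 lower. They were Cdt1, which helps load it (-0.41 ± 0.08, SE; 64.7 ± 6.47 CPM in HTB and 85.8 ± 7.41 CPM in LTB; adjusted p = 0.0137, edgeR), and Cdc45, a part of the active helicase (-0.34 ± 0.07, adjusted p = 0.0143). Gins1, another part, was at -0.41 ± 0.14 (adjusted p = 0.089). The list's median was -0.16.

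Of 20 nucleotide supply genes, 2 fell. Dut, which keeps uracil out of DNA, was at -0.36 ± 0.09 (SE; adjusted p = 0.0295, edgeR). Samhd1, which degrades deoxynucleotides and is known from myeloid cells, had the larger log2 change, -1.08 ± 0.13, from 453 ± 86.1 CPM in LTB to 214 ± 23 CPM in HTB (SD, n = 5 each; adjusted p = 0.00102, edgeR). Rrm2, a ribonucleotide reductase subunit, was at -0.47 ± 0.15 (adjusted p = 0.0621).

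Of 27 genes of E2F, RB and the G1/S cyclins, 5 fell: E2f2 (-0.56 ± 0.08), E2f1 (-0.34 ± 0.06), Cdk4 (-0.35 ± 0.08), Rbl1 (-0.24 ± 0.06) and Cdkn1a (-1.01 ± 0.17, SE). E2f1 and E2f2 are activators of S phase genes and Cdk4 is a G1 kinase, while Rbl1 (p107) and Cdkn1a (p21) restrain the cycle. The adjusted p values were 0.00285 for E2f2, 0.00861 for E2f1 and 0.00645 for Cdkn1a (edgeR). The list was mixed, with 18 of 27 below 0 and a median of -0.14. At an unadjusted p under 0.05, 8 were lower and 1 was higher, and DESeq2 also called 1 higher (0 by limma voom).

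Mitosis genes had 0 of 24 called and a median of -0.10 (5 lower at an unadjusted p under 0.05, 3 by DESeq2, 0 by limma voom). The smallest p values were for Ube2c, Mybl2 and Aurka, at -0.40 ± 0.13, -0.40 ± 0.13 and -0.29 ± 0.10 (SE; adjusted p = 0.0681, 0.0759 and 0.0772, edgeR). Of the 24 genes 19 were below 0. Mki67 was among those above 0, at 0.04 ± 0.16 (adjusted p = 0.901, edgeR). Its level was 483 ± 58.2 CPM in HTB and 470 ± 109 CPM in LTB (SD, n = 5 each). Checkpoint and fork protection had 1 of 20 lower, Rad9a of the checkpoint clamp (-0.45 ± 0.09, adjusted p = 0.013), beside Wee1 at 0.38 ± 0.13 and Atr at -0.17 ± 0.06. Alternative clamp loaders and cohesion had 1 of 13 lower, Cdca5 (sororin, a cohesin stabiliser; -0.37 ± 0.10, adjusted p = 0.0398), beside Esco2 at -0.32 ± 0.12 and Pds5b at 0.25 ± 0.10. Replication-coupled chromatin genes had 0 of 13 called (2 lower unadjusted, 0 by DESeq2 or limma voom), with Chaf1a, Mms22l and Tonsl at -0.26, -0.23 and -0.22. The mitochondrial replisome had 0 of 10 called (1 lower and 1 higher unadjusted, 1 higher by DESeq2, 0 by limma voom), with Lig3, Primpol and Tfb2m at 0.14, -0.24 and 0.18. Without HTB replicate 2 the mitosis list had 4 lower, the chromatin list 3 lower and the mitochondrial list 0. The background in that fit is 12.7% of all tested genes called lower, not 7.51%. No difference between these lists was tested.

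**Figure D5:**
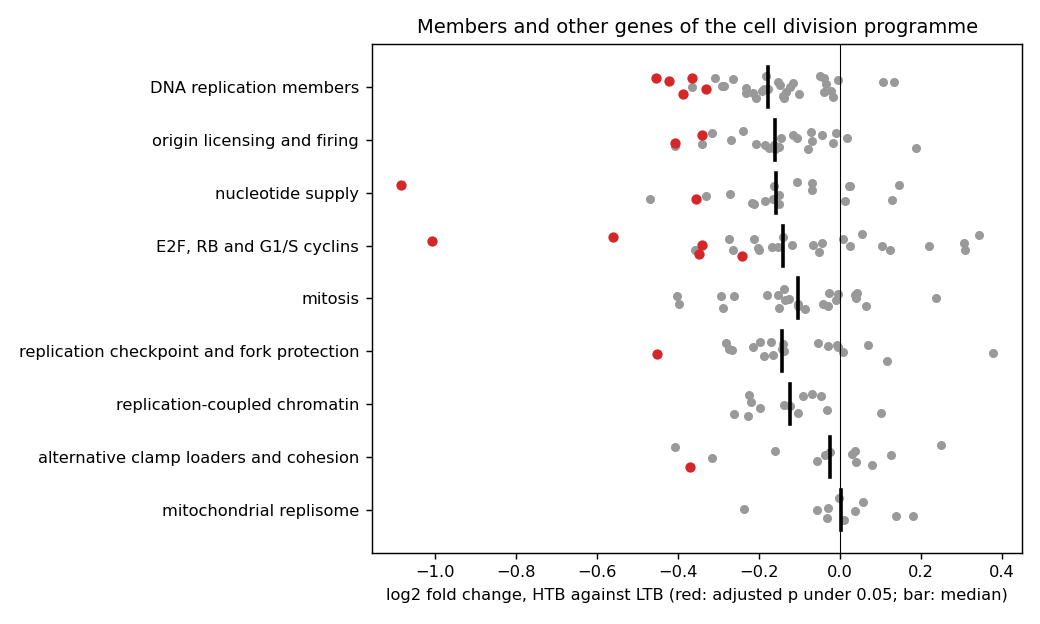
Log2 fold change, HTB against LTB, of each tested gene in the replication set and in 8 other lists (rows); red points passed and the black bar is the median. The replication set has a median of -0.18 and the mitochondrial replisome one near 0.

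Of the immune cell markers, those of T cells differed most often between the groups. Of 7 tested T cell markers 5 fell, and their sum spanned 15.2 to 41.7 CPM (HTB) and 42.3 to 188 CPM (LTB), highest in LTB replicate 1. Macrophage markers summed to 524 to 980 CPM (HTB) and 694 to 1278 CPM (LTB), which overlap, with 2 of 8 lower (1 by limma voom). Of the epithelial markers 1 of 2 tested, Cdh1, was lower, with the values given above. Neutrophil markers had 0 of 4 called (1 lower unadjusted, 0 by DESeq2 or limma voom) and summed to 5.04 to 24.5 CPM (HTB) and 7.77 to 55.5 CPM (LTB). B cell markers had 0 of 3 called (2 lower unadjusted, 0 by DESeq2 or limma voom) and summed to 1.64 to 3.0 CPM (HTB) and 2.89 to 6.01 CPM (LTB). Fibroblast markers had 0 of 7 called (1 higher unadjusted and by DESeq2, 0 by limma voom) and summed to 6892 to 10590 CPM (HTB) and 5475 to 8076 CPM (LTB). Endothelial markers had 0 of 5 called (2 higher unadjusted, 1 by DESeq2, 0 by limma voom) and reached 279 CPM in HTB replicate 2, where the rest of HTB had 87.6 to 99.1 CPM and LTB 68.1 to 112 CPM. The part of these cells in the replication genes was not tested. LTB replicate 1, with the most T cell RNA, had the lowest LTB sum of the 35 genes.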

How the data were processed

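RNA of whole MC38 tumours was sequenced in 10 libraries after a column extraction and a SMARTER mRNA library kit, per the labels' protocols. The genome build was GRCm38 (mm10), per the submitters' processing notes. Aligner and counter: not given in the sources used here. No strand setting is stated either, so reads of a gene and an antisense partner cannot be separated. The authors deposited estimated counts per gene, not scaled to depth: 86.4% were whole numbers (tolerance 1e-09), others were rounded. The same deposited table gives a mean expression score of unnamed unit per group, and the authors' log2 fold changes with p-values and q-values from DESeq2, per the file headers. A line without a gene was left out.

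The 35 genes were taken by annotation, and they and the other lists were chosen with earlier results of these data known. Counts were tested with edgeR 4.0.16 (R 4.3.3): TMM factors, filterByExpr, quasi-likelihood test with group as the only term, 13469 genes, Benjamini-Hochberg adjustment, threshold 0.05. CPM used TMM-scaled totals. RPKM divided CPM by the mean GENCODE M21 length of a gene's RefSeq mRNAs. The named genes were all 35, with all 10 values for those that passed, and the 3 of smallest p in each other list (Cdk4 and Rbl1 were added, after values were seen, to complete a count of 5). All 10 values of Mcm3, Mki67 of the mitosis list and the subunit ratios were also chosen after values were seen. Strands come from RefSeq, since the table's differed for 8 genes. Alternatives used DESeq2 1.42.0, limma 3.58.1, other scalings and filters, a replicate block and left-out libraries. The edgeR script was tested on simulated data as a check of the code. Its recovery of changes as small as those seen here is not given. That check therefore says nothing about the genes that were not called.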

Additional observations from a re-analysis of the deposited data

Results flagged for a closer look

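Among 72 tests of a library far from the other 4 of its group, over the 35 genes and their sum, 4 met Dixon's criterion (0.71 for 5 samples), and chance gives about 1 in 20. LTB replicate 5 was high for Pola2, at 46.4 CPM against 36.6 to 38.9 CPM, and for Mcm3, at 217 CPM against 161 to 167 CPM. HTB replicate 2 was high for Rpa2, at 41.7 CPM against 30.3 to 33.6 CPM, and for Pold2, at 69.6 CPM against 51.3 to 56.3 CPM.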

How the results depend on the processing

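Pcna and Pold4 passed in all 19 alternative fits, with adjusted p from 2.48e-06 to 0.0447 and from 1.43e-04 to 0.0349. Pola2 passed in 16, Prim2 in 13 and Pole2 in 11. Of 665 comparisons of a gene with its value in another fit, 599 kept direction and side of the threshold, 33 gained the call, 17 lost it and 16 turned sign, the last for genes near 0 only. The count of the 35 called lower was 10 at an adjusted p under 0.1, 8 by DESeq2, 15 by voom with sample weights, 16 without HTB replicate 2 and LTB replicate 1, and 2 to 13 when 1 library was left out. With the replicate block it was 2 (Pcna and Pold4). Calls over all genes moved with the setting as well. They are given in the next paragraph and are the background for these counts. Deviations of log2 CPM from the group mean correlated at 0.002 to 0.109 between same-numbered libraries. By this measure 1 of 5 HTB libraries correlated best with its own number. No pairing by number was seen, which does not show that there was none.

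Over all genes, calls higher in HTB were 1127 at an adjusted p under 0.1, 1084 by DESeq2 and 221 with the replicate block. Voom with sample weights gave 1988 lower and 1605 higher, and without HTB replicate 2 and LTB replicate 1 these were 1663 and 1245. With 1 library left out the ranges were 561 to 1716 lower and 177 to 1324 higher. For the 8 other lists together, calls higher were 2 at an adjusted p under 0.1 and 3 by DESeq2. Voom with sample weights gave 42 lower and 5 higher, the replicate block 6 lower, leaving out both libraries 42 lower and 4 higher, and leaving out 1 library 7 to 30 lower and 0 to 5 higher. The causes were not tested.

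Sign changes, on the log2 scale, were Rnaseh1 at 0.029 by voom with sample weights and 0.021 without both libraries, and Pold2 at 0.0048 with no filter. With 1 library left out Rnaseh1 ran from -0.0798 to 0.0131, Rpa3 from -0.0663 to 0.0048, Pole3 from -0.0547 to 0.0403, Pold2 from -0.08 to 0.034 and Lig1 from -0.12 to 0.0052 (-0.171 without both libraries). Each of the 35 genes had at least 351 reads in each library, and the effect of depth was not tested.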
